A study of Mus musculus with 12 samples.

Results

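The transcripts of 10 genes were followed in a mouse B cell lymphoma line: 5 genes for the subunits of the transcription factor NF-κB (Nfkb1, Nfkb2, Rel, Rela and Relb), 3 genes for the IκB proteins that hold it in the cytoplasm (Nfkbia, Nfkbib and Nfkbie), and the feedback inhibitor genes Tnfaip3 and Tnip1. They were taken by gene identifier from the 26305 genes of the count table, and all 10 were present. The set was chosen with earlier results of these data known. The line, EMRK1184luc, descends from a lymphoma of 1 female mouse carrying the Eμ-Myc transgene, in which Myc is driven by an immunoglobulin heavy chain enhancer active in B cells, and it also carries a lentivirus with luciferase. Every group shared this transgene and this lentivirus. The 4 groups of 3 libraries were cells given 5 µM WM-1119 for 3 days, their DMSO vehicle controls at 3 days, cells given 5 µM WM-1119 for 6 days, and their DMSO controls at 6 days. WM-1119 is a small molecule that blocks KAT6A and KAT6B, acetyltransferases of the MYST family that act on histones. All results therefore describe 1 cell line in culture, and normal B cells were not analysed here.

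NF-κB proteins bind DNA as dimers. Rela, Rel and Relb encode the subunits with an activation domain, whereas Nfkb1 and Nfkb2 encode precursors that are shortened to DNA-binding subunits without one. In resting cells IκB proteins keep dimers out of the nucleus until the IκB kinase (IKK) marks them for destruction, and the freed dimers switch on, among others, the genes of their own inhibitors. In B cells the antigen receptor, Toll-like receptors and members of the TNF receptor family feed into this circuit, Rel and Nfkb1 are known for their part in B cell division, and Relb and Nfkb2 for a slower, noncanonical branch used in B cell survival.

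The stretches below show the letters that the κB consensus motif, the DNA element bound by NF-κB dimers, takes close to the start of 6 of these genes, in capitals with 20 flanking bases on each side. For Nfkb2 and Tnfaip3, which hold further matches, 1 match each is printed. They are given because the pathway is known for regulating its own genes through such elements. Each is written 5′ to 3′ on the strand of its gene, from RefSeq promoter windows of build GRCm38.p6 (mm10) that run from 250 bases before to 50 bases after an annotated start.
Nfkb2 (chr19:46304678-46304728, + strand): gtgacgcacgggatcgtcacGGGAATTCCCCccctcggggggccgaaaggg
Rel (chr11:23771031-23771081, - strand): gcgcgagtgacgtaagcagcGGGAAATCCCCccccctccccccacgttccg
Nfkbia (chr12:55492647-55492696, - strand): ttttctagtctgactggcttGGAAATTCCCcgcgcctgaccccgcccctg
Nfkbie (chr17:45555574-45555623, + strand): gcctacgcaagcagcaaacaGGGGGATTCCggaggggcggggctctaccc
Tnip1 (chr11:54962967-54963018, - strand): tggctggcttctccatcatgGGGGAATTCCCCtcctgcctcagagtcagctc
Tnfaip3 (chr10:19015393-19015442, - strand): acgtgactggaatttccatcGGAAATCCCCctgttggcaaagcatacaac
The motif was searched on both strands, and overlapping matches were joined into 1 run of capitals. The first motif base lay 39 bases before the start in Nfkb2, 92 in Rel, 29 in Nfkbia, 106 in Nfkbie, 58 in Tnip1 and 12 in Tnfaip3. In Nfkb2, Rel and Tnip1 the motif read on both strands. Windows were given for 8 of the 10 genes (not for Nfkb1 and Relb), and 6 of these 8 held the motif, against 5.1% of the 27025 genes with a window. Counted by window, 8 of the 11 windows of these genes held it, against 4.5% of 32851. Windows 2 and 3 of Nfkb2 overlap and share a match, so the windows are not independent of each other. No match was found in the windows of Rela and Nfkbib. A match is a run of letters and was not measured as a binding site here.

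**Figure D1:**
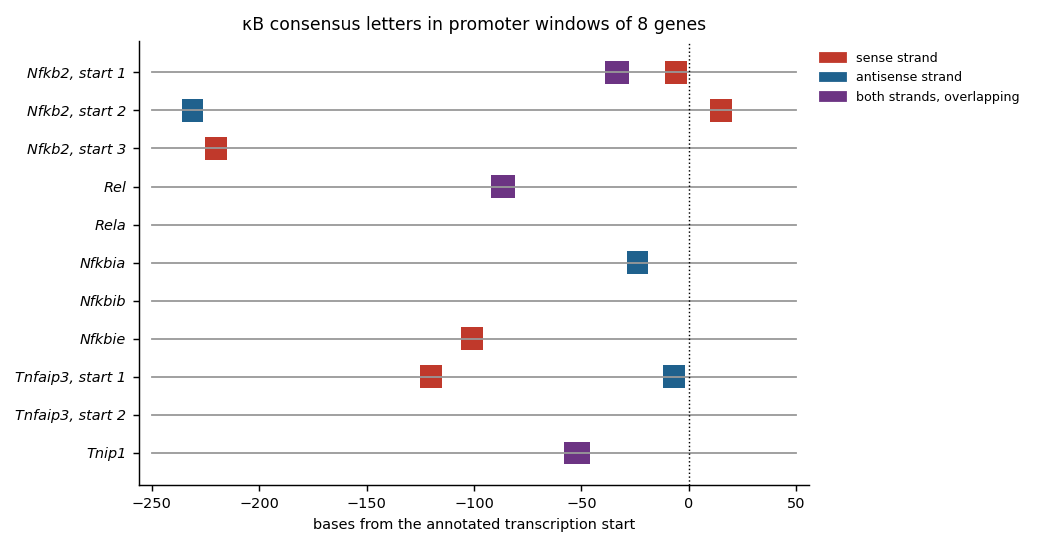
Positions of κB consensus matches (blocks) in the RefSeq promoter windows of 8 genes (grey lines), in bases from the annotated transcription start (dotted line). The matches of Nfkbia, Rel, Tnip1 and Nfkbie lie 29 to 106 bases before the start, Nfkb2 and Tnfaip3 hold more than 1 match, and the lines of Rela and Nfkbib are empty.

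Counts per library totalled 18327651 to 28228807 with WM-1119 and 17928095 to 21712496 with DMSO at 3 days, and 14736267 to 17563985 with WM-1119 and 22831687 to 41749357 with DMSO at 6 days. Levels are given as CPM (counts divided by the scaled library total), as mean ± SD of 3 libraries, and a gene is said to have risen or fallen where the adjusted p of edgeR's quasi-likelihood test over 11997 tested genes was below 0.05. The summed level of 10 B cell marker genes was 5668 to 5886 CPM with WM-1119 and 5322 to 5599.9 CPM with DMSO at 3 days, and 5628 to 5913 CPM with WM-1119 and 5352 to 5463 CPM with DMSO at 6 days. Ighm, the immunoglobulin heavy chain gene, made up the largest part, with 2684 CPM with WM-1119 and 2471 CPM with DMSO at 3 days, and 2814 CPM with WM-1119 and 2478 CPM with DMSO at 6 days. Other members were lower in treated libraries without overlap at both times: the transcription factor gene Pax5 had 87.0 CPM with WM-1119 and 121 CPM with DMSO at 3 days, and 90.4 CPM with WM-1119 and 135 CPM with DMSO at 6 days. Ebf1 had 107 CPM with WM-1119 and 138 CPM with DMSO at 3 days, and 116 CPM with WM-1119 and 141 CPM with DMSO at 6 days. Cd22 had 202 CPM with WM-1119 and 251 CPM with DMSO at 3 days, and 174 CPM with WM-1119 and 256 CPM with DMSO at 6 days. Of the B cell markers Ms4a1, the gene for CD20, had no count in 11 of the 12 libraries. Summed T cell markers stayed between 0.886 and 2.27 CPM, with Cd3e, Cd4 and Cd8a at 0 in every group. Summed myeloid markers, mostly Itgam, came to 105 to 110.5 CPM with WM-1119 and 112 to 120.1 CPM with DMSO at 3 days, and to 122 to 128 CPM with WM-1119 and 113 to 116 CPM with DMSO at 6 days, with C1qa, C1qb and Elane at 0. One of them, the receptor gene Csf1r, had 4.66 CPM with WM-1119 and 1.04 CPM with DMSO at 3 days, and 4.14 CPM with WM-1119 and 0.835 CPM with DMSO at 6 days, without overlap. The 5 summed plasma cell markers, most of whose level is Irf4, were 394 to 408 CPM with WM-1119 and 493 to 561 CPM with DMSO at 3 days, and 353 to 359 CPM with WM-1119 and 484 to 538 CPM with DMSO at 6 days. Of the other plasma cell markers Sdc1 was lower in treated libraries, with 98.6 CPM with WM-1119 and 123 CPM with DMSO at 3 days, and 90.0 CPM with WM-1119 and 116 CPM with DMSO at 6 days. Xbp1 was not, with 51.3 CPM with WM-1119 and 50.7 CPM with DMSO at 3 days, and 53.6 CPM with WM-1119 and 48.3 CPM with DMSO at 6 days. At 6 days Xbp1 was higher in treated libraries, without overlap. Prdm1 and Jchain were near 0. The part of these markers in the results below was not tested. Col1a1, the fibroblast collagen gene, exceeded 1 CPM in 5 libraries, namely 1 of WM-1119 at 3 days (1.88 CPM), 2 of WM-1119 at 6 days (6.83 and 12.9 CPM) and 2 of DMSO at 6 days (6.10 and 2.08 CPM). At 6 days these were replicates 1 and 2 of both treatments, so Col1a1 ran with the replicate number there. Replicate 3 had 0.408 CPM with WM-1119 and 0.487 CPM with DMSO at 6 days. The summed 10 fibroblast markers reached 0.952 to 39.3 CPM with WM-1119 and 1.38 to 17.4 CPM with DMSO at 6 days. In bulk RNA, fewer cells of a type and less RNA per cell cannot be told apart.

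With WM-1119, several transcripts of the NF-κB system rose modestly and none fell. At 3 days Nfkb1, Nfkb2, Rel, Nfkbia, Nfkbie and Tnip1 were higher in treated cells, by 18.9% to 24.8%. At 6 days Nfkb1, Nfkb2, Relb, Nfkbia and Tnip1 were higher, by 21.9% to 43.2%. Rela and Nfkbib passed the test at neither time, and neither did the barely expressed Tnfaip3.

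All 10 genes passed the filter on low counts. At 3 days 6 of 10 rose, where 11.8% of all tested genes rose. At 6 days 5 of 10 rose, where 15.7% of all tested genes rose. With edgeR 0 of the 10 fell at either time, at an unadjusted p below 0.05 also 0 fell, and DESeq2 and limma voom called 0 lower as well; over all genes 12.7% fell at 3 days and 15.1% at 6 days. The median log2 fold change of the 10 genes was 0.26 at 3 days and 0.23 at 6 days, beside 0.0016 and -0.0037 over all tested genes. The libraries of both treatments did not overlap, with WM-1119 higher, for 6 of the 10 genes at 3 days and 5 at 6 days, beside 19.5% and 21.4% of all tested genes. Without the 5 libraries in which Col1a1 exceeded 1 CPM, only 1 library of each treatment was left at 6 days, and its spread was assumed to be that of the other groups. The genes that rose at 6 days then had log2 fold changes of 0.27 (Nfkbia) to 0.79 (Relb). Those that rose at 3 days had 0.22 (Nfkbie) to 0.33 (Nfkb2). Rel and Nfkbie lost their 3-day calls in this fit, and Nfkb1, Nfkb2 and Nfkbia lost their 6-day calls. Fewer libraries also lower the power of this fit. The part of the fibroblast transcripts in these results was not tested.

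**Figure D2:**
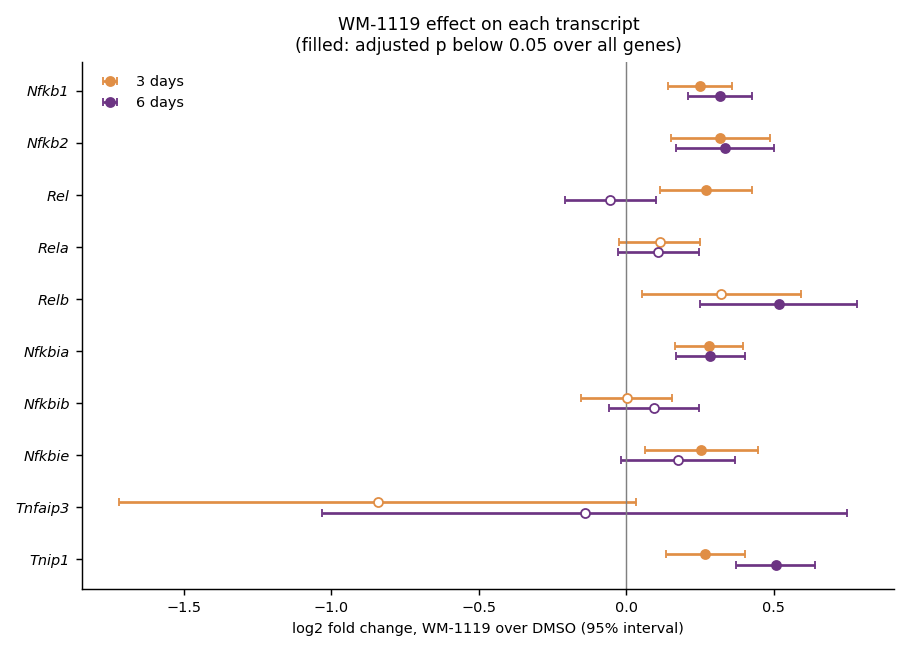
Log2 fold change of WM-1119 over DMSO (horizontal axis) for each of the 10 genes at 3 and 6 days, with 95% intervals; filled points passed the adjusted p threshold of 0.05 over all genes. Rises of 0.25 to 0.52 make up the filled points, and the widest intervals belong to Tnfaip3.

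Among the subunits, Nfkb1 (chromosome 3, bases 135584655 to 135691969, mm10) encodes the precursor of the commonest DNA-binding partner of Rela and Rel. Nfkb1 had 143, 141 and 150.2 CPM in the libraries treated with WM-1119 for 3 days, against 112, 123 and 130.1 CPM in their DMSO controls. At 6 days it had 147, 155 and 152 CPM with WM-1119, against 117, 123 and 124 CPM with DMSO. The lowest treated library stood above the highest control at both times. The log2 fold change was 0.25 ± 0.0520 (SE, adjusted p = 0.00104) at 3 days and 0.32 ± 0.0519 (adjusted p = 5.70e-05) at 6 days. Without the libraries with Col1a1 the difference at 6 days was 0.29 (adjusted p = 0.0538).

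Nfkb2 (chromosome 19, bases 46300994 to 46312400) encodes the precursor whose shortening drives the noncanonical branch. Its libraries had 23.0, 21.8 and 21.0 CPM with WM-1119 at 3 days, against 17.0, 16.9 and 19.0 CPM with DMSO. By 6 days the values were 20.5, 23.7 and 22.5 CPM with WM-1119, against 18.7, 16.9 and 17.2 CPM with DMSO. Treated and control libraries were again separate at both times, and the rise was of like size, with a log2 fold change of 0.32 ± 0.0805 (adjusted p = 0.00524) at 3 days and 0.34 ± 0.0799 (adjusted p = 0.00264) at 6 days. The span of Nfkb2 overlaps those of the long noncoding RNA gene 4833438C02Rik, which had at most 17.4 CPM and rose too (log2 fold change 0.45 at 3 days, adjusted p = 0.000805, and 0.75 at 6 days, adjusted p = 1.19e-06), and of Psd, with at most 6.50 CPM. The strand setting of the counting is unknown here, so reads of these overlapping genes may not be told apart. Without the libraries with Col1a1 the difference of Nfkb2 at 6 days was 0.39 (adjusted p = 0.0919).

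Relb (chromosome 7, bases 19606217 to 19629438) encodes the partner of the shortened Nfkb2 product. At 3 days it had 9.46, 8.06 and 6.82 CPM with WM-1119, against 5.90, 6.71 and 6.87 CPM with DMSO, and the third treated library lay among the controls. The values at 6 days were 8.14, 8.82 and 10.1 CPM with WM-1119, against 6.22, 6.82 and 5.81 CPM with DMSO, with no overlap. At 3 days the log2 fold change of 0.32 ± 0.130 did not pass the test (adjusted p = 0.0767), and leaving out 1 library gave 0.21 (adjusted p = 0.304, without the first treated library) to 0.43 (adjusted p = 0.0326, without the third). At 6 days Relb rose by 0.52 ± 0.128 (adjusted p = 0.00356), a fold of 1.43, and by 0.79 (adjusted p = 0.0281) without the libraries with Col1a1. The change of the effect from 3 to 6 days was 0.20 ± 0.183 and did not pass the test (adjusted p = 0.865).

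Rel (chromosome 11, bases 23736847 to 23770969), which encodes the subunit known for its role in lymphocyte division, was called at 3 days and not at 6 days. With WM-1119 for 3 days its libraries had 25.4, 25.6 and 24.0 CPM, against 19.1, 21.0 and 22.2 CPM with DMSO. With WM-1119 for 6 days they had 26.3, 24.6 and 24.4 CPM, against 24.4, 26.6 and 27.3 CPM with DMSO. The treated groups stood side by side at both times, whereas the DMSO controls stood lower at 3 days than at 6 days, without overlap. Accordingly Rel was higher with WM-1119 at 3 days (log2 fold change 0.27 ± 0.0751, adjusted p = 0.0107) but differed by -0.053 ± 0.0737 at 6 days (adjusted p = 0.629). Between the DMSO groups Rel was higher at 6 days than at 3 days by 0.33 ± 0.0736 (adjusted p = 0.0330), the only one of the 10 genes called in that comparison, in which 0.809% of all genes were called and 0.358% were called higher. Between the WM-1119 groups the same difference was 0.0045 ± 0.0752 (adjusted p = 0.979). The change of the WM-1119 effect from 3 to 6 days was -0.32 ± 0.105, with an unadjusted p of 0.00568 and an adjusted p of 0.280, so a difference between the times did not pass the test. The call at 3 days was lost without the second treated library (0.25, adjusted p = 0.0507) or the first control (0.21, adjusted p = 0.0762), and without the libraries with Col1a1 (0.25, adjusted p = 0.0536). The call between the DMSO groups was lost without the first or second DMSO library of 3 days (adjusted p = 0.177 and 0.111) or the second or the third of 6 days (adjusted p = 0.0864 and 0.125), when only the DMSO libraries were fitted (0.33, adjusted p = 0.108) and after thinning to equal depth (0.33, adjusted p = 0.0507).

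Rela (chromosome 19, bases 5637442 to 5648134) encodes the main activating subunit of the canonical branch. It had 85.5 ± 4.26 CPM with WM-1119 and 79.0 ± 8.42 CPM with DMSO at 3 days, and 87.4 ± 3.28 CPM with WM-1119 and 81.2 ± 4.13 CPM with DMSO at 6 days (SD, n = 3 each). Treated and control libraries overlapped at both times. The log2 fold changes of 0.11 ± 0.0661 (adjusted p = 0.234) and 0.11 ± 0.0659 (adjusted p = 0.231) did not pass the test. Their 95% intervals, -0.024 to 0.25 and -0.029 to 0.25, both reach below 0. Averaged over both times the difference was 0.11 ± 0.0467 (adjusted p = 0.0621).

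**Figure D3:**
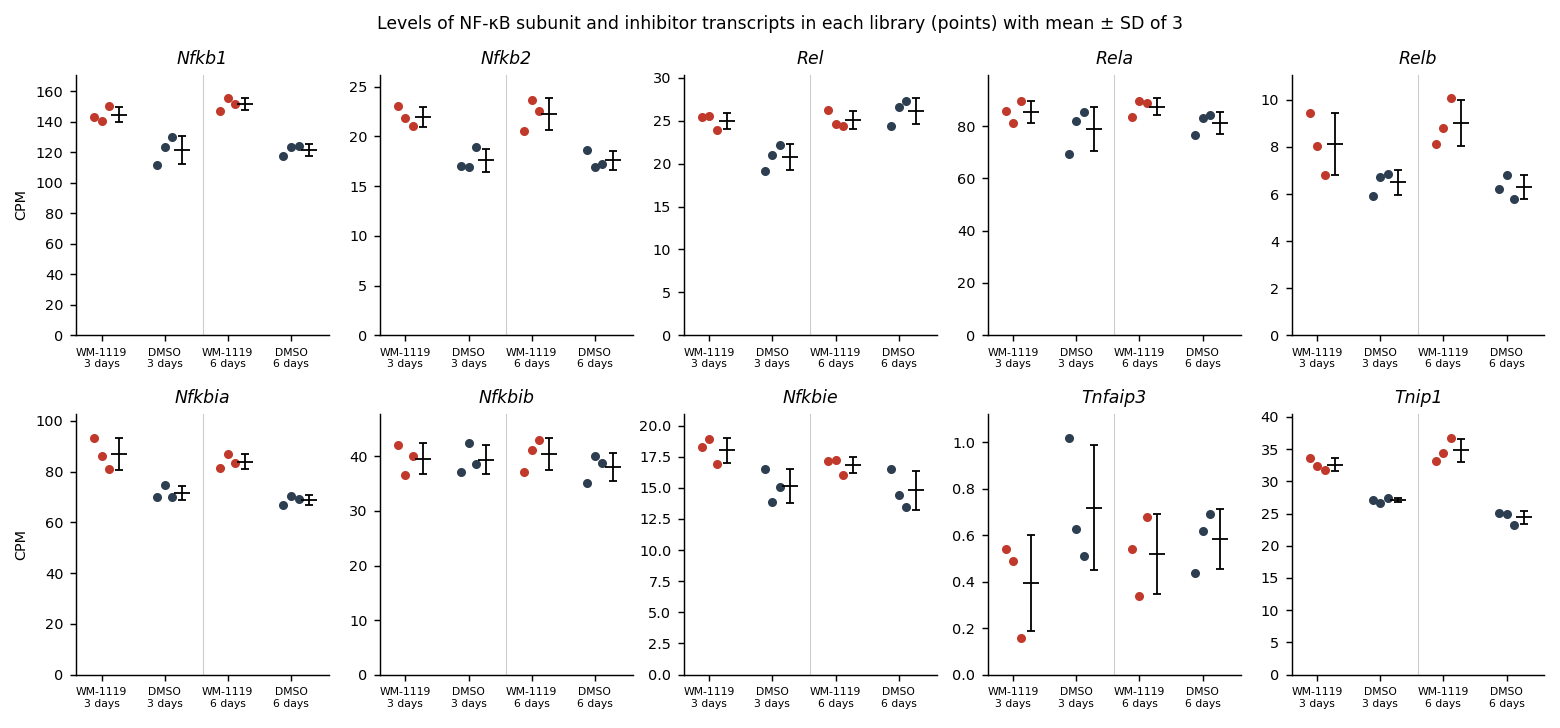
CPM of each library (points) and mean ± SD of 3 libraries (bars) for the 10 genes, with WM-1119 left of DMSO at each time; every vertical axis starts at 0. Treated and control points separate at both times for Nfkb1, Nfkb2, Nfkbia and Tnip1, while Rel separates at 3 days and Relb at 6 days.

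Of the IκB genes, Nfkbia (chromosome 12, bases 55489409 to 55492647) encodes IκBα, the inhibitor that is destroyed and remade fastest when the pathway is switched on. At 3 days it had 93.4, 86.3 and 81.0 CPM with WM-1119, against 69.8, 74.8 and 70.0 CPM with DMSO. At 6 days it had 81.2, 87.0 and 83.3 CPM with WM-1119, against 66.9, 70.5 and 69.1 CPM with DMSO. Every treated library was above every control library of its time. The rise was nearly the same at both times, 0.28 ± 0.0556 (adjusted p = 0.000662) at 3 days and 0.29 ± 0.0557 (adjusted p = 0.000405) at 6 days on the log2 scale. Without the libraries with Col1a1 the difference at 6 days was 0.27 (adjusted p = 0.107).

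Nfkbie (chromosome 17, bases 45555700 to 45563169) encodes IκBε, an inhibitor found mainly in blood cells. Its libraries had 18.3, 18.9 and 16.9 CPM with WM-1119 for 3 days, against 16.5, 13.9 and 15.0 CPM with DMSO, and did not overlap. After 6 days they had 17.2, 17.2 and 16.1 CPM with WM-1119, against 16.5, 14.4 and 13.4 CPM with DMSO, where the first control lay among the treated libraries. The rise at 3 days was close to the threshold (log2 fold change 0.26 ± 0.0925, adjusted p = 0.0485), and at 6 days 0.18 ± 0.0930 did not pass (adjusted p = 0.164). The call at 3 days was lost with DESeq2 (adjusted p = 0.0812), without the libraries with Col1a1 (0.22, adjusted p = 0.160) and in 8 of 12 fits that left out 1 library, where the adjusted p ran from 0.0311 to 0.220. Those 8 were the first and second treated libraries and the second and the third control of 3 days, all 3 treated libraries of 6 days and the second control of 6 days. At 6 days leaving out 1 library gave 0.11 (adjusted p = 0.414, without the third control) to 0.27 (adjusted p = 0.0461, without the first control).

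Nfkbib (chromosome 7, bases 28758251 to 28766644), the gene of the slower-turning IκBβ, had 39.6 ± 2.82 CPM with WM-1119 and 39.4 ± 2.71 CPM with DMSO at 3 days, and 40.5 ± 2.97 CPM with WM-1119 and 38.0 ± 2.59 CPM with DMSO at 6 days (SD, n = 3 each). All groups overlapped. Its log2 fold change was 0.0015 ± 0.0737 (adjusted p = 0.992) at 3 days and 0.094 ± 0.0737 (adjusted p = 0.364) at 6 days, with 95% intervals of -0.15 to 0.15 and -0.059 to 0.25. A difference as large as that of Nfkbia at 3 days lies outside both intervals.

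Tnip1 (chromosome 11, bases 54910787 to 54962956) encodes a ubiquitin-binding protein that works with the Tnfaip3 product to dampen signals to NF-κB. It had 33.7, 32.4 and 31.7 CPM with WM-1119, against 27.1, 26.7 and 27.4 CPM with DMSO at 3 days. With WM-1119 for 6 days it had 33.2, 34.4 and 36.8 CPM, against 25.1, 25.0 and 23.3 CPM with DMSO. The groups lay far apart compared with the spread within them. The log2 fold change was 0.27 ± 0.0642 (adjusted p = 0.00347) at 3 days and 0.51 ± 0.0641 (adjusted p = 2.17e-06) at 6 days, a fold of 1.42. The effect differed between the times by 0.24 ± 0.0907 (unadjusted p = 0.0155, adjusted p = 0.412), which did not pass the test. Without the libraries with Col1a1 the rise at 6 days was 0.66 (adjusted p = 0.000676).

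Tnfaip3 (chromosome 10, bases 19000910 to 19015410) encodes a ubiquitin-editing enzyme that is among the strongest brakes on NF-κB and is often lost in human B cell lymphomas. In EMRK1184luc cells it was nearly silent. Its libraries held 10.0, 14.0 and 3.0 counts with WM-1119 and 22.0, 13.0 and 9.0 counts with DMSO at 3 days, and 9.0, 6.0 and 10.0 counts with WM-1119 and 18.0, 14.0 and 17.0 counts with DMSO at 6 days. In CPM this was 0.540, 0.488 and 0.157 CPM with WM-1119, against 1.02, 0.627 and 0.511 CPM with DMSO at 3 days. The values at 6 days were 0.539, 0.339 and 0.680 CPM with WM-1119, against 0.439, 0.620 and 0.690 CPM with DMSO. Treated and control libraries overlapped at both times. The log2 fold changes of -0.84 ± 0.422 (adjusted p = 0.161) and -0.14 ± 0.428 (adjusted p = 0.837) did not pass the test. Their 95% intervals of -1.72 to 0.035 at 3 days and -1.03 to 0.75 at 6 days are wide. A rise of the size seen in Tnip1 at 3 days lies above the 3-day interval and within the 6-day interval. A fall of that size lies within both intervals.

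The change of the WM-1119 effect from 3 to 6 days was called for 0 of the 10 genes with edgeR, DESeq2 and limma voom alike, beside 0.725% of all tested genes with edgeR, and 2 of the 10, Rel and Tnip1, had an unadjusted p below 0.05. Between WM-1119 at 6 days and WM-1119 at 3 days 0 of the 10 were called by these tools, beside 5.62% of all genes with edgeR, and 0 had an unadjusted p below 0.05. Averaged over both times 6 of 10 rose with WM-1119, where 20.6% of all tested genes rose: Nfkb1, Nfkb2, Relb, Nfkbia, Nfkbie and Tnip1. The comparisons at 3 days, 6 days and their average share libraries and are not independent of each other.

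Divided by gene length, so that genes can be set beside each other, the levels spanned a wide range. In CPM per kilobase Nfkbia led with 55.0 ± 3.93 with WM-1119 and 45.3 ± 1.77 with DMSO at 3 days, and 53.1 ± 1.86 with WM-1119 and 43.6 ± 1.16 with DMSO at 6 days. Nfkb1 followed with 35.1 ± 1.21 with WM-1119 and 29.5 ± 2.27 with DMSO at 3 days, and 36.8 ± 0.976 with WM-1119 and 29.5 ± 0.890 with DMSO at 6 days. Rela came next, except with DMSO at 6 days, where its mean stood above that of Nfkb1. Rela had 31.6 ± 1.57 with WM-1119 and 29.2 ± 3.11 with DMSO at 3 days, and 32.3 ± 1.21 with WM-1119 and 30.0 ± 1.53 with DMSO at 6 days. Nfkb1 and Rela overlapped in both DMSO groups and were separate, with Nfkb1 above, in both WM-1119 groups. Below them stood Nfkbib, then Tnip1 and Rel, then Nfkbie and Nfkb2, then Relb. Tnip1 was above Rel in both WM-1119 groups and in DMSO at 3 days, and below it in DMSO at 6 days, without overlap each time. Nfkbie and Nfkb2 overlapped except with WM-1119 at 3 days, where Nfkbie was above. At the bottom Tnfaip3 reached 0.0861 ± 0.0452 CPM per kilobase with WM-1119 and 0.157 ± 0.0582 with DMSO at 3 days.

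**Figure D4:**
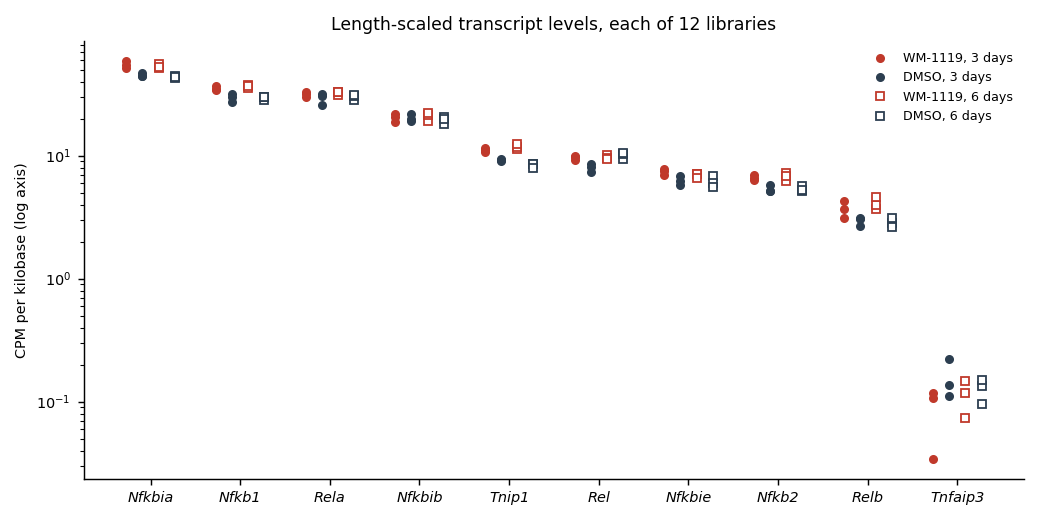
Length-scaled level (CPM per kilobase, log axis) of each of the 12 libraries for the 10 genes in order of their mean level with DMSO at 3 days. WM-1119 is drawn in red and DMSO in dark blue, with circles for 3 days and squares for 6 days. The order runs from Nfkbia, at 43.6 to 55.0 CPM per kilobase in the group means, to Tnfaip3 at 0.0861 to 0.157.

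Summed per kilobase, the 5 subunit transcripts came to 86.7 ± 2.17 CPM per kilobase with WM-1119 and 75.1 ± 6.43 with DMSO at 3 days, and 89.6 ± 2.51 with WM-1119 and 77.8 ± 2.72 with DMSO at 6 days. The 3 IκB transcripts came to 82.8 ± 4.93 with WM-1119 and 71.8 ± 2.65 with DMSO at 3 days, and 80.9 ± 2.93 with WM-1119 and 69.3 ± 2.00 with DMSO at 6 days. Both sums were thus of like size, and each was higher in treated than in control libraries without overlap at both times. Of the subunit sum, Nfkb1 made up 40.5% with WM-1119 and 39.4% with DMSO at 3 days, and 41.0% with WM-1119 and 37.9% with DMSO at 6 days. Rela made up 36.4% with WM-1119 and 38.8% with DMSO at 3 days, and 36.0% with WM-1119 and 38.5% with DMSO at 6 days. Nfkb1 held the larger share of this pair in all 6 WM-1119 libraries and in 3 of the 6 DMSO libraries. Rel made up 11.2% with WM-1119 and 10.7% with DMSO at 3 days, and 10.8% with WM-1119 and 13.0% with DMSO at 6 days. Nfkb2 held 6.88% to 7.70% and Relb 3.67% to 4.56% of it in the group means.

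The other genes of the pathway were described from 9 lists by role with 98 genes, of which 66 were tested. At 3 days 18 of the 66 rose and 6 fell, that is 36.4% called beside 24.4% of all tested genes. At 6 days 19 rose and 7 fell, 39.4% beside 30.8%. The calls lay mostly in the lists of receptors and target genes, and each of the other lists held fewer.

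The 3 genes of the IKK complex (Chuk, Ikbkb and Ikbkg), which releases NF-κB from IκB, gave 0 calls at both times with edgeR, DESeq2 and limma voom. Of all tested genes edgeR called 24.4% at 3 days and 30.8% at 6 days, and 3 genes are few to set beside these shares. At an unadjusted p below 0.05 with edgeR there were 0 at 3 days and 1 at 6 days. Averaged over both times Ikbkg was called higher with edgeR (0.093 ± 0.0357, adjusted p = 0.0408). For this average limma voom called 1 of the 3 genes higher and DESeq2 0. The 7 genes of the TAK1 kinase complex and of the linear ubiquitin ligase LUBAC act just upstream. At 3 and at 6 days they gave 0 calls with each of these tools, beside the same shares of all tested genes with edgeR. At an unadjusted p below 0.05 with edgeR there were also 0 of them at both times. In the noncanonical branch 2 of 5 genes rose at both times, beside 11.8% of all tested genes at 3 days and 15.7% at 6 days. One was Traf3, whose protein holds the noncanonical kinase in check, by 0.15 ± 0.0434 at 3 days (adjusted p = 0.0113) and 0.17 ± 0.0434 at 6 days (adjusted p = 0.00406). The other was Birc3, a ubiquitin ligase of the same brake and itself a known NF-κB target, by 0.18 ± 0.0616 (adjusted p = 0.0396) and 0.33 ± 0.0610 (adjusted p = 0.000230). At 3 days the call of Traf3 was lost without the third treated library (adjusted p = 0.0660) or the first control (0.0544), and without the libraries with Col1a1 it was lost at 3 days (0.15, adjusted p = 0.0516) and at 6 days (0.21, adjusted p = 0.122). At 3 days that of Birc3 was lost with DESeq2 (0.0623) and limma voom (0.0517), and without the first or the third treated library (0.0921 and 0.193), any 1 of the 3 controls of 3 days (0.0787 to 0.0978) or the second control of 6 days (0.0518).

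In the antigen receptor branch Bcl10, an adaptor that joins the receptor to IKK, rose at 3 days, by 0.22 ± 0.0594 (adjusted p = 0.00853). At 6 days 0 of the 4 genes of this branch were called with edgeR, DESeq2 or limma voom, beside 30.8% of all tested genes with edgeR. At that time 1 of the 4 had an unadjusted p below 0.05 with edgeR. Bcl10 had 35.7 ± 0.425 CPM with WM-1119 and 32.2 ± 1.27 CPM with DMSO at 6 days (SD, n = 3 each). Its call at 3 days was lost without the second control (adjusted p = 0.0542) and after thinning to equal depth (0.17, adjusted p = 0.0985), and a call at 6 days appeared with upper-quartile scaling (0.16, adjusted p = 0.0409).

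Of 21 receptor and adaptor genes 16 were tested. At 3 days 5 rose and 1 fell (37.5% called, beside 24.4% of all tested genes). At 6 days 8 rose and 2 fell (62.5% called, beside 30.8%). Tlr9, the receptor for unmethylated DNA, was the gene of these lists with the largest fold at both times. It had 14.4, 16.6 and 14.4 CPM with WM-1119, against 6.41, 6.85 and 8.23 CPM with DMSO at 3 days, and 13.8, 14.2 and 16.5 CPM with WM-1119, against 6.49, 6.78 and 6.50 CPM with DMSO at 6 days. The log2 fold change was 1.09 ± 0.110 (adjusted p = 1.47e-07) and 1.17 ± 0.109 (adjusted p = 2.90e-08), with no overlap of libraries. Tnfrsf1b, the second TNF receptor, rose by 0.44 ± 0.0620 (adjusted p = 1.31e-05) and 0.59 ± 0.0618 (adjusted p = 1.63e-07), and the adaptor kinase gene Ripk1 by 0.32 ± 0.0712 (adjusted p = 0.00209) and 0.39 ± 0.0702 (adjusted p = 0.000185). The call of Ripk1 at 6 days was lost without the libraries with Col1a1 (0.30, adjusted p = 0.0855). Tnfrsf13c, the receptor for the B cell survival factor BAFF, rose by 0.31 ± 0.0643 at 3 days (adjusted p = 0.000943) and differed by 0.06 ± 0.0650 at 6 days (adjusted p = 0.527). Among the 5 untested receptor and adaptor genes, Cd40 had 56 counts and Tnfrsf1a 15 over all 12 libraries. Of 8 ligand genes 3 were tested, Tnf, Lta and Ltb. They gave 0 calls at either time with edgeR, DESeq2 and limma voom, beside 24.4% and 30.8% of all tested genes with edgeR. At an unadjusted p below 0.05 with edgeR there were also 0 of them.

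**Figure D5:**
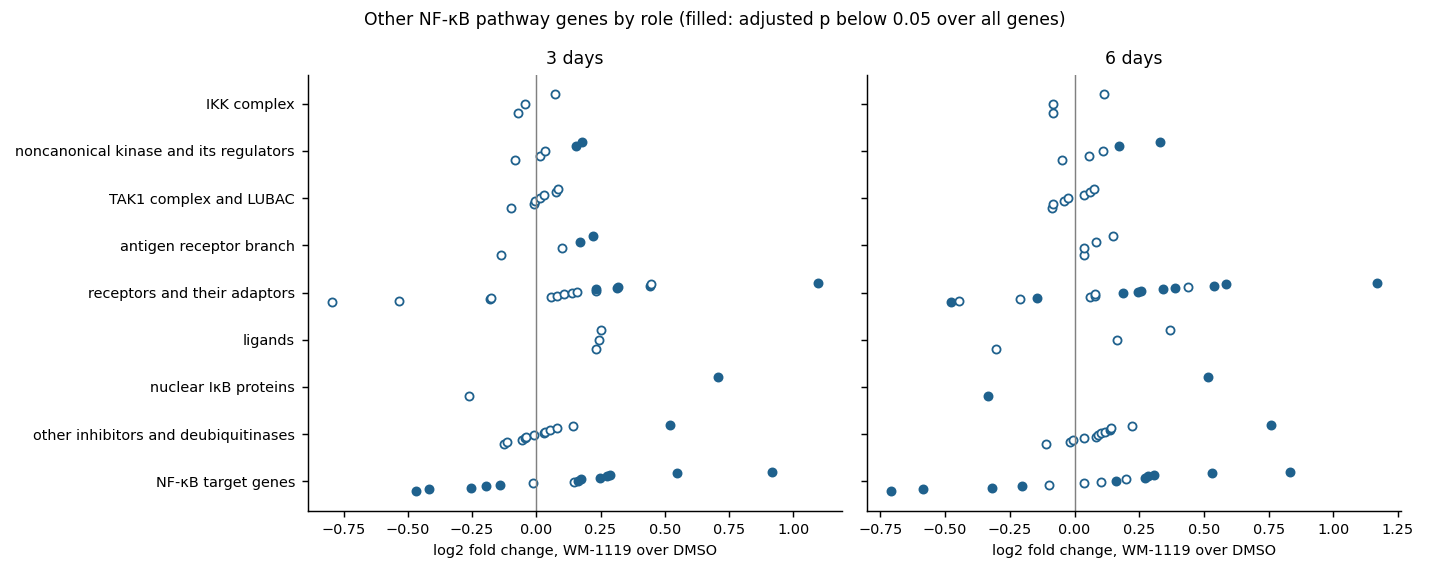
Log2 fold change of WM-1119 over DMSO for each tested gene of 9 pathway lists (1 point a gene), at 3 days (left) and 6 days (right); filled points passed the adjusted p threshold of 0.05. The points of the IKK, TAK1 and LUBAC rows are open and near 0, while the rows of receptors and target genes spread to both sides, with filled points from -0.71 for Irf4 to 1.17 for Tlr9.

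Of 2 tested genes for nuclear IκB proteins 1 rose at 3 days, where 24.4% of all tested genes were called. At 6 days 1 rose and 1 fell, where 30.8% of all tested genes were called. Nfkbid, which encodes a nuclear IκB protein, had 21.6, 20.1 and 21.3 CPM with WM-1119, against 14.0, 11.8 and 12.7 CPM with DMSO at 3 days, and 15.8, 17.9 and 14.6 CPM with WM-1119, against 11.8, 11.7 and 10.3 CPM with DMSO at 6 days. It rose by 0.71 ± 0.0931 (adjusted p = 6.09e-06) and 0.51 ± 0.0958 (adjusted p = 0.000256). Its call at 6 days was lost without the libraries with Col1a1 (0.50, adjusted p = 0.0620). Nfkbiz, its nuclear relative, fell at 6 days (-0.34 ± 0.103, adjusted p = 0.0164) and had a log2 fold change of -0.26 ± 0.0996 at 3 days (adjusted p = 0.0603). Its call at 6 days was lost without the first control (-0.21, adjusted p = 0.155) or the third treated library (-0.33, adjusted p = 0.0515), and without the libraries with Col1a1 (-0.12, adjusted p = 0.715). At 3 days a call appeared without the first or the third control of 6 days (adjusted p = 0.0329 and 0.0274), with the replicate number as a block (-0.26, adjusted p = 0.0495) and when only the groups of 3 days were fitted (-0.25, adjusted p = 0.0353). Of 12 tested other inhibitors and deubiquitinases 1 rose at 3 days (8.33%, beside 11.8% of all tested genes) and 2 at 6 days (16.7%, beside 15.7%), or 4 at 6 days in the fit with the replicate number as a block. Zc3h12a, whose product degrades inflammatory messenger RNAs, rose at both times, by 0.52 ± 0.111 (adjusted p = 0.00135) and 0.76 ± 0.112 (adjusted p = 1.69e-05). Tax1bp1, an adaptor of the Tnfaip3 product, was higher at 6 days (0.14 ± 0.0491, adjusted p = 0.0358). This call was lost without the libraries with Col1a1 (0.044, adjusted p = 0.804), without a filter on low counts (adjusted p = 0.0532) and without the first, the second or the third treated library or the first or second control (adjusted p = 0.0774 to 0.159).

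Known NF-κB target genes other than those above did not move as 1 block. Of 34 listed, 14 were tested. At 3 days 7 rose and 5 fell (85.7% called, beside 24.4% of all tested genes). At 6 days 6 rose and 4 fell (71.4% called, beside 30.8%). Icam1, an adhesion molecule, had 79.4, 73.4 and 74.6 CPM with WM-1119, against 52.1, 50.5 and 52.7 CPM with DMSO at 3 days, and 71.0, 76.4 and 73.7 CPM with WM-1119, against 51.4, 50.6 and 51.2 CPM with DMSO at 6 days. It rose by 0.55 ± 0.0519 (adjusted p = 6.08e-08) and 0.53 ± 0.0518 (adjusted p = 5.20e-08). Gadd45b, a stress-response gene, rose by 0.92 ± 0.166 (adjusted p = 0.000269) and 0.83 ± 0.171 (adjusted p = 0.000685). The 6-day call of Gadd45b was lost without the libraries with Col1a1 (0.74, adjusted p = 0.0847). In the other direction Irf4, a transcription factor of plasma cell formation, had 259, 240.0 and 254 CPM with WM-1119, against 327, 325 and 389 CPM with DMSO at 3 days, and 218, 205 and 215 CPM with WM-1119, against 355, 323 and 364 CPM with DMSO at 6 days. Irf4 fell (-0.47 ± 0.0631, adjusted p = 2.24e-05, and -0.71 ± 0.0636, adjusted p = 8.87e-08), and so did the chemokine receptor gene Ccr7 (-0.26 ± 0.0676, adjusted p = 0.00774, and -0.59 ± 0.0677, adjusted p = 6.25e-07). Irf4 is itself the largest part of the summed plasma cell markers given above. The call of Ccr7 at 3 days was lost without the second treated library (-0.20, adjusted p = 0.0708) and without the libraries with Col1a1 (-0.20, adjusted p = 0.0829). The other 20 listed targets had too few counts to be tested, among them Il6, Il10, Ccl3, Ccl4 and Cd83 with 0 counts in the 12 libraries and Cd69 with 93.

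Set beside the promoter letters shown above, the genes that hold the motif were not all among those that rose. Nfkb2, Nfkbia and Tnip1 hold it and rose at both times, Rel and Nfkbie hold it and rose at 3 days, and Tnfaip3 holds it and stayed near silence. Rela and Nfkbib, without a match in their windows, passed the test at neither time. Over the other tested genes with a window, 16.8% of 546 with the motif rose and 12.8% fell at 3 days, beside 11.7% and 12.9% of 8681 without it. At 6 days 22.0% with the motif rose and 14.3% fell, beside 15.8% and 14.9% without it. These shares are a description, and no test was made of them.

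As a description of likeness, the 2 genes whose log2 CPM followed each of the 10 most closely over the 12 libraries were sought among 9484 genes of at least 5 CPM. The libraries share their treatment groups, so any pair that differs between treatments will score highly. Nuak1 (Pearson r 0.982) and Sfn (0.977) were most like Nfkb1, Milr1 (0.966) and Btg2 (0.956) most like Nfkb2, and Anxa11 (0.934) and Polr3c (0.926) most like Relb. Septin1 (0.966) and Xrcc6 (0.965) were most like Nfkbia, Hars2 (0.941) and Hmgn2 (0.907) most like Nfkbie, and Vim (0.980) and St3gal1 (0.978) most like Tnip1. For the other genes the values were 0.893 for Ntan1 and 0.856 for Slc30a6 beside Rel, 0.897 for Elovl1 and 0.890 for Oser1 beside Rela, 0.921 for Ogfr and 0.890 for Chmp1a beside Nfkbib, and 0.841 for Gm14288 and 0.802 for Hpse beside Tnfaip3.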

How the data were processed

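RNA of 12 cultures was made into poly(A) libraries with a stranded kit, per the labels' protocols. The deposited values are whole-number read counts for each gene; per the submitters' processing notes the authors used featureCounts and build mm10, with no version. The sources used here give neither the aligner nor the strand setting. The design text calls the 3 libraries of a group biological replicates but names no culture, day or batch, so p-values measure only how far these libraries spread. Of 27179 entries 874 carry no gene identifier (0.305% to 0.362% of a library's counts) and were left out. Counts were scaled by TMM, filtered by filterByExpr and tested in 1 quasi-likelihood fit of 4 group means (edgeR 4.0.16, R 4.3.3), with two-sided p adjusted by Benjamini-Hochberg over 11997 genes and a threshold of 0.05. The test was checked on simulated counts. An exact permutation of 3 against 3 libraries cannot give p below 0.1.

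The 10 genes, the lists and the tests were chosen with earlier results of these data known. Pathway genes named in the text are, per list, the up to 3 called genes with the smallest p at each time; others are named where a count or an untested gene is spelled out, after their values were seen. A called pathway gene is not reported here. The alternatives scaled by RLE or upper quartile, dropped the filter or asked for at least 1 CPM in 3 libraries, and used DESeq2 1.42.0, limma 3.58.1 voom, only the groups compared, a replicate block, thinning to 14691369 counts, removal of the 5 libraries over 1 CPM of Col1a1, and removal of each library in turn. Same-numbered libraries of WM-1119 and DMSO deviated together at 6 days (r = 0.193, 0.144 and 0.243 for replicates 1, 2 and 3) and not at 3 days (-0.023, 0.039 and 0.0064). The numbers may thus mark pairs at 6 days, from the data and not from the labels. The main fit did not pair the libraries, and the replicate number entered only as a block in the alternatives. Figures were drawn with matplotlib 3.10.9. Gene lengths are those of the deposited table.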

Additional observations from a re-analysis of the deposited data

How the results depend on the processing

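Among the 10 genes no called direction reversed in any alternative. With the replicate number as a block, in all libraries or in the 6 libraries of 6 days alone (chosen after seeing the data), 6 genes rose at 3 days and 5 at 6 days, and the block changed no other call of theirs in these comparisons; averaged over both times it added Rela (0.11, adjusted p = 0.0249). Rela averaged over both times was also called with upper-quartile scaling (adjusted p = 0.0250), without a filter (0.0444), after thinning (0.0444) and without the second treated library or the third control of 3 days or the third control of 6 days (0.0428, 0.0217 and 0.0486), and Rel after thinning (0.15, adjusted p = 0.0281). Leaving out 1 library gave 4 to 7 risen genes of the 10 at 3 days, where 1036 to 1566 of all tested genes rose (1414 with all libraries). It gave 5 to 6 at 6 days, where 1525 to 1923 of all tested genes rose (1881 with all libraries), and 0 to 1 between the DMSO groups. Over all genes it gave 46 to 217 calls (87 with all libraries) for the change of effect, 309 to 1100 (674) between the WM-1119 groups and 41 to 158 (97) between the DMSO groups; the highest values came without the third DMSO library of 6 days for the first 2 and without the first for the last. Without the 5 libraries over 1 CPM of Col1a1, calls at 6 days were 1516 (803 higher, 713 lower) against 3693 with all libraries, 3312 (1637 lower) against 5036 averaged, 5 for the change of effect, 268 between the WM-1119 groups and 537 between the DMSO groups, and 2 of the 10 genes rose at 6 days; Nfkbie averaged over both times was lost (adjusted p = 0.0789). Fewer libraries lower the power of this fit. Fitting only the groups compared gave 1117 calls between the WM-1119 groups and 47 between the DMSO groups; there 0 of the 10 genes were called higher, as after thinning. Calls between the DMSO groups were 173 without a filter, 173 with DESeq2 and 167 with the replicate block. Tnfaip3 had 3 to 22 counts in a library, which limits its precision, and thinning to equal depth also changed the calls of Rel and Rela named above.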
